A study of Mus musculus with 45 samples.

Results

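The 39 Hox cluster genes of the mouse are described here in 3 tissues of the uterus. They were taken as every row of the count table whose symbol is Hox, a cluster letter from a to d and a number, which gave 39 of 24422 genes: 11 in the HoxA cluster on chromosome 6, 10 in HoxB on chromosome 11, 9 in HoxC on chromosome 15 and 9 in HoxD on chromosome 2. Females of the outbred CD-1 stock were wildtype (WT) or Plag1 knockouts (KO). In the KO allele a lacZ gene stands in place of the open reading frame of Plag1, which encodes a zinc finger transcription factor. All females were sexually mature and superovulated with pregnant mare serum followed by human chorionic gonadotropin (hCG), and their uteri were taken on the day after hCG. Each of 7 WT and 7 KO mice gave a piece of intact horn (uterus), the scraped mucosa (endometrium) and the muscle wall left after scraping (myometrium). Repeat libraries of a mouse were summed, so that 45 libraries gave 42 samples in 6 groups. Scraping parts the layers incompletely, and every sample is a mixture of cell types, in which fewer cells of a type and less RNA per cell cannot be told apart.

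Hox genes encode homeodomain transcription factors that give cells a position along the body axis. Genes with the same paralog number in different clusters are close relatives, and genes with low numbers act nearer the head than genes with high numbers. In the female tract Hoxa9 is known from the oviduct, Hoxa10 from the uterus, Hoxa11 from the uterus and cervix and Hoxa13 from the vagina. Female mice lacking Hoxa10 or Hoxa11 have impaired fertility, with a uterus that does not support implantation normally. Hox proteins often bind DNA together with partners of the Pbx and Meis families.

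The samples held 256298 to 2431043 gene counts each. Median depth was 1063445 counts in WT uterus, 861923 in KO uterus, 646405 and 701253 in WT and KO endometrium, and 532771 and 535568 in WT and KO myometrium. Levels are given as CPM, the counts of a gene scaled to a common total of gene counts. A floor of 3 counts stood for as much as 11.7 CPM in the shallowest sample, so low values are coarse, and the floor covers counting error only. Plag1 itself was barely seen, with 0 to 2 counts in a group, and gave no check of the genotypes. Smooth muscle markers (Acta2, Des, Myh11 and Cnn1, summed) were at 8099 to 25042 CPM in myometrium and 187 to 8082 CPM in endometrium, while epithelial markers (Krt8, Krt18, Epcam and Cdh1) were at 52.3 to 576 CPM and 708 to 2284 CPM. The 8 stromal markers were at 5336 to 14164 CPM in myometrium and 1193 to 3367 CPM in endometrium, so the scraped endometrium held relatively few transcripts of collagen-rich stroma. The myometrium of WT mouse 5 had the highest epithelial sum of its layer (576 CPM). The endometrium of WT mouse 8 held 6193 CPM of the oviduct markers Ovgp1 and Foxj1, against a median of 77.2 CPM over the 14 mice, and the highest muscle sums in endometrium were 8082 CPM in KO mouse 13 and 7359 in WT mouse 3.

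STRT, the library method used, reads the 5′ ends of polyadenylated transcripts, so the starts of the genes are what was counted. The windows below show 250 bases before the annotated start in lower case and the first 50 transcribed bases in capitals, from RefSeq (GRCm38.p6) and located in NCBIM37, the build of the counts, by exact match. The windows of Hoxa10 (at the inner of its 2 annotated starts) and Hoxa9 lie inside the annotated extent of their own genes, and that of Hoxb8 inside its gene only with the last 50 bases. Hoxa10 is shown as the Hox gene with the highest counts, Hoxb8 and Hoxa9 as genes with opposite layer differences, and Hoxa11os because its first 50 bases all lie within exons of Hoxa11 on the other strand.
Hoxa10, chr6:52184889-52185188, minus strand: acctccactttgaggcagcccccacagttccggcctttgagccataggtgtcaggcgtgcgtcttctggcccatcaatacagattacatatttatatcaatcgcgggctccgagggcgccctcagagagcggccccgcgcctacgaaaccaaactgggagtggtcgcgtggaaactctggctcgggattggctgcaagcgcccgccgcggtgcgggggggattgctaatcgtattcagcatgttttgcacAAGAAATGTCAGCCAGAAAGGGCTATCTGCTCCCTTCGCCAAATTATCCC
Hoxb8, chr11:96142969-96143268, plus strand: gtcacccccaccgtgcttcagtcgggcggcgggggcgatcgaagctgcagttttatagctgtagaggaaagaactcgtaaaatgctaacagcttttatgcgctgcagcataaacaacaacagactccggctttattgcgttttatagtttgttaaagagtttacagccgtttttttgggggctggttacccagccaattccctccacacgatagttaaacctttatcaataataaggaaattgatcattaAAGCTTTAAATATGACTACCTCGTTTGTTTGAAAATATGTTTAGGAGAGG
Hoxa9, chr6:52177320-52177619, minus strand: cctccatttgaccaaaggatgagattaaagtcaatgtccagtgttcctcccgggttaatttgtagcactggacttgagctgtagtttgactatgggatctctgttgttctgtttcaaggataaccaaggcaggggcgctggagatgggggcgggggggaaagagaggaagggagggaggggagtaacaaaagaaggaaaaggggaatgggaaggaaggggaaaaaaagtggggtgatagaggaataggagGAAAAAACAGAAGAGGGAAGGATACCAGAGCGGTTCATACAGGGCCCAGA
Hoxa11os, chr6:52194992-52195291, plus strand: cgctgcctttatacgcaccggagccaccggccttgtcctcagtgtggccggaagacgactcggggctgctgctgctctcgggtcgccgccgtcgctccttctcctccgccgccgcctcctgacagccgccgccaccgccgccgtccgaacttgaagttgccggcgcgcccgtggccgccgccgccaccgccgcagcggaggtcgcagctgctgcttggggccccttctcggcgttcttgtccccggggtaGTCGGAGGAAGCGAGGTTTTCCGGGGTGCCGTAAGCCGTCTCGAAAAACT

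Of the 39 genes, 22 had such a window, 24 windows in all. Their median GC content was 57.7%, against 52.7% over all 32851 windows of the table, and their median number of CpG dinucleotides was 14.5 against 7. On either strand, TATAAA was in 4 of the 24 windows and in 13.6% of all windows, and AGGTCA, part of nuclear receptor sites, was in 7 and in 16.3%. TTTATNG, a form of the site bound by the Cdx proteins that regulate Hox clusters, was in 2 of the 24 and in 10.9% of all windows, with 3 matches in the window of Hoxb8 and 3 in that of Hoxd4. TGATTNAT, a form of the joint Pbx and Hox site, was in 2 windows and in 3.22% of all. The PLAG1 consensus was in 3 windows and in 19.2% of all. A match is a string of letters and not a measured site.

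Hox transcripts made up 9946 of 31794045 gene counts. At this depth 7 genes had no count in any of the 42 samples, which allows a level of up to 0.0944 CPM over all samples. Another 13 genes had 1 to 29 counts in all, and 19 had 30 or more. The 4 genes of paralog 13 (Hoxa13, Hoxb13, Hoxc13 and Hoxd13), which act at the tail end of the axis, were all at 0, and of paralog 12 only Hoxd12 was seen, with 2 counts in 1 sample.

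**Figure D1:**
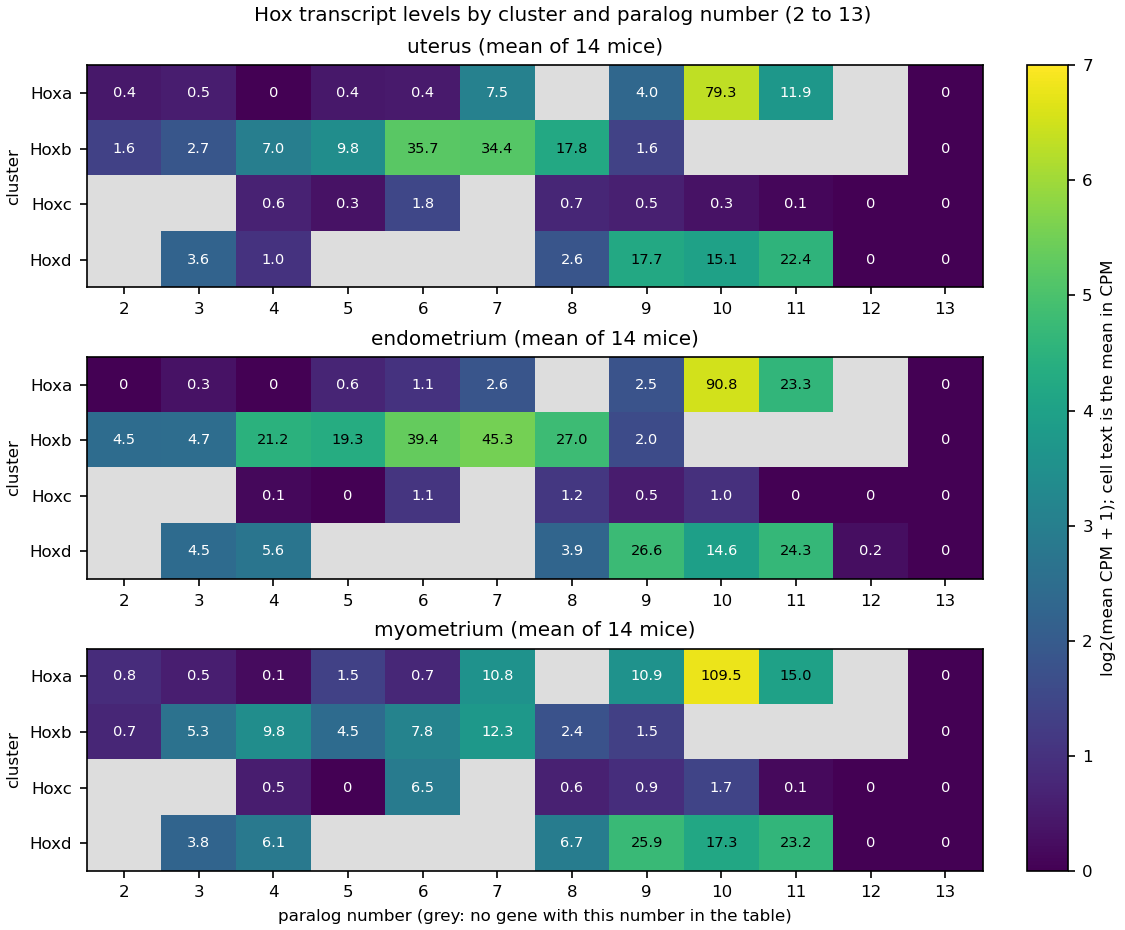
Mean level of each Hox gene in uterus, endometrium and myometrium (n = 14 mice each), with cluster on the vertical axis and paralog numbers 2 to 13 on the horizontal axis. Colour gives log2(mean CPM + 1), the text in a cell gives the mean in CPM, and grey cells have no gene. Hoxa10 is brightest in all 3 tissues, the HoxB genes 4 to 8 are brighter in endometrium than in myometrium, and HoxC is dark throughout.

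Hoxa10 (chr6:52181196-52190853) had the highest level of all Hox genes in the 3 tissues and held 28.3% of the Hox counts. It ranged from 60.7 to 131 CPM with a median of 89.9 in WT uterus, and from 42.6 to 161 with a median of 50.5 in KO uterus. In endometrium it ranged from 60.2 to 157 CPM (median 110) in WT and from 51.0 to 126 (median 69.0) in KO, and in myometrium from 74.5 to 219 (median 112) and from 68.0 to 132 (median 99.0). The groups overlapped in each tissue, and every sample was above the floor. Divided by exon length, Hoxa10 was again first in each tissue, at 20.7 CPM per kb in uterus, 23.7 in endometrium and 28.5 in myometrium.

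The clusters differed in how much of the Hox signal they gave to each layer. HoxB gave 44.1% ± 9.36 of the Hox counts in endometrium and 15.5% ± 5.19 in myometrium (mean ± SD, n = 14), while HoxA gave 33.1% ± 7.86 and 51.8% ± 6.89. In summed CPM, HoxB stood at 164 ± 55.9 in endometrium and 44.4 ± 17.1 in myometrium, and the lowest endometrium (82.6 CPM) was above the highest myometrium (80.7 CPM). HoxA stood at 121 ± 37.3 and 150 ± 49.4 CPM, and HoxD at 79.6 ± 21.9 and 83.1 ± 22.4 CPM, with overlapping ranges for both. HoxC was low everywhere, at a mean of 3.82 CPM (0 to 9.39) in endometrium, 10.3 CPM (0 to 18.7) in myometrium and 4.29 CPM (0 to 11.3) in uterus. In intact uterus the shares were 37.0% for HoxA, 39.2% for HoxB, 1.58% for HoxC and 22.2% for HoxD. These sums carry no test.

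By paralog number, paralog 10 held the largest share of the Hox counts in each tissue (33.0% of uterine, 27.7% of endometrial and 44.2% of myometrial Hox counts). Paralog 9 gave 8.72% in endometrium and 13.6% in myometrium, and paralog 11 gave 13.1% and 13.9%. The middle numbers leaned the other way, with paralog 6 at 12.4% in endometrium and 5.28% in myometrium, paralog 7 at 14.1% and 7.75%, and paralog 8 at 8.22% and 3.34%. These shares are of counts pooled over the samples of a tissue, while the cluster shares are means over mice. Deep samples weigh more in the pool, most of all KO mouse 13 endometrium, with 2431043 gene counts against a KO endometrium median of 701253.

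Between the layers, HoxB genes of the middle of the cluster were higher in endometrium and single genes of HoxA and HoxC were lower. Over both genotypes, 26 of the 39 genes passed the filter of at least 1 CPM in at least 5 samples, and 9 of them differed between endometrium and myometrium (edgeR quasi-likelihood test, adjusted p under 0.05). That is 34.6% of the 26, and 28.1% of all 14314 genes tested differed by the same rule, so the count itself is close to that of genes at large. Hoxb2, Hoxb5, Hoxb6, Hoxb7 and Hoxb8 were higher in endometrium (5 of 26, against 14.9% of all genes), and Hoxa2, Hoxa7, Hoxa9 and Hoxc6 were lower (4 of 26, against 13.3%). Hoxa2 reached 1 CPM in 5 myometria and 0 endometria, so it passed the filter only through the layer where it was high, and without it 8 of 25 differed (32%), 3 of them lower. Hoxb2 reached 1 CPM in 13 endometria and 4 myometria, so its myometria alone were too few for the filter. It thus also passed through the layer where it was high, and it is still counted among the 8 of 25. The median log2 fold change was -0.16 over the 26 Hox genes and 0.033 over all genes tested. Within the mice at library positions of rows A to C (5 WT and 3 KO) 8 Hox genes differed (15.8% of all genes did), and within those of rows D to F (2 WT and 4 KO) 4 did (14.1% of all genes), namely Hoxb5 to Hoxb8. Myometrium sat in rows B and E and endometrium in rows C and F, apart from repeat libraries of KO mouse 13 and WT mouse 12. Layer and row therefore cannot be told apart by this split. Of the repeat libraries, those of KO mouse 13 endometrium lay in rows D, E and F. They gave 12.9, 6.52 and 12.4 CPM of Hoxb5 and 44.2, 14.7 and 74.1 of Hoxb6. Hoxb7 was at 31.3, 42.4 and 34.8 CPM and Hoxb8 at 18.3, 3.26 and 15.7. WT mouse 12 myometrium, in rows E and F, gave 4.33 and 2.01 CPM of Hoxb5 and 6.49 and 6.03 of Hoxb6. It gave 8.65 and 8.04 CPM of Hoxb7 and 0 and 4.02 of Hoxb8. The effect of the row was not tested.

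Hoxb8 (chr11:96143219-96146639), an axial patterning gene also active in myeloid progenitors, had the largest difference. It ranged from 8.04 to 46.8 CPM (median 23.2) in WT endometrium and from 6.36 to 69.2 (median 18.1) in KO endometrium. In myometrium it ranged from 0 to 3.75 CPM (median 2.08) in WT and from 0 to 7.84 (median 2.14) in KO. With repeat libraries summed, the layers did not overlap in WT, where the lowest endometrium was above the highest myometrium. In KO only mouse 14 then had an endometrium below the highest myometrium. The log2 fold change was 3.14 ± 0.41 (SE, adjusted p = 1.42e-07, edgeR), and Hoxb8 was higher in endometrium in 14 of 14 mice.

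Hoxb6 (chr11:96153790-96162883) lies next to Hoxb5 and Hoxb7 in the cluster. It ranged from 11.7 to 86.7 CPM (median 28.3) in WT endometrium and from 22.2 to 70.0 (median 35.7) in KO endometrium, against 1.73 to 18.8 (median 4.43) and 0 to 17.2 (median 10.1) in myometrium. In KO the layers did not overlap with repeat libraries summed, and in WT 5 of 7 endometria were above all myometria. A single library of KO mouse 13 endometrium, at 14.7 CPM, was below the highest KO myometrium. The log2 fold change was 2.18 ± 0.30 (SE, adjusted p = 4.43e-07, edgeR), with endometrium higher in 14 of 14 mice.

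Hoxb7 (chr11:96145571-96151650) had the highest level of the HoxB genes in both layers in CPM, and per kb of exon it stood below Hoxb6. It ranged from 19.5 to 68.2 CPM (median 40.6) in WT endometrium and from 28.3 to 65.9 (median 57.1) in KO endometrium, against 6.91 to 37.5 (median 9.32) and 2.14 to 21.0 (median 8.68) in myometrium. The value of 37.5 belonged to WT mouse 5, whose myometrium also had the most epithelial transcripts and which was the only mouse with more Hoxb7 in myometrium than in endometrium. The log2 fold change was 1.83 ± 0.28 (SE, adjusted p = 2.61e-06, edgeR) and 2.17 without WT mouse 5. Annotated exons of Hoxb7 and Hoxb8 overlap on the same strand, so some tags could belong to either gene.

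Hoxb5 (chr11:96163909-96167434), which is needed in enteric neural crest, ranged from 13.0 to 33.3 CPM (median 24.1) in WT endometrium and from 8.44 to 31.5 (median 14.3) in KO endometrium. Myometrium held 0 to 13.1 CPM (median 4.00) in WT and 0 to 7.63 (median 4.27) in KO. Endometrium was higher in 14 of 14 mice, with a log2 fold change of 1.97 ± 0.34 (SE, adjusted p = 2.04e-05, edgeR). Hoxb2, a hindbrain patterning gene, was lower in level, at 0 to 9.85 CPM in endometrium and 0 to 3.13 in myometrium, and differed by 2.27 ± 0.55 (SE, adjusted p = 0.00168, edgeR). Hoxb2 was higher in endometrium in 12 of 14 mice. Genes on the other strand overlap exons of Hoxb5 (0610040B09Rik) and of Hoxb2 (Hoxb3os), and the use of strand in counting is not stated.

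The step pattern along HoxB was not even. Hoxb3 (-0.25 ± 0.43, SE), Hoxb4 (0.85 ± 0.40) and Hoxb9 (0.25 ± 0.54) had log2 fold changes that did not pass the test, with adjusted p of 0.72, 0.11 and 0.79 (edgeR). Hoxb4, known for its effect on blood stem cells, varied widely in endometrium, from 3.18 to 81.9 CPM over the 14 mice.

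**Figure D2:**
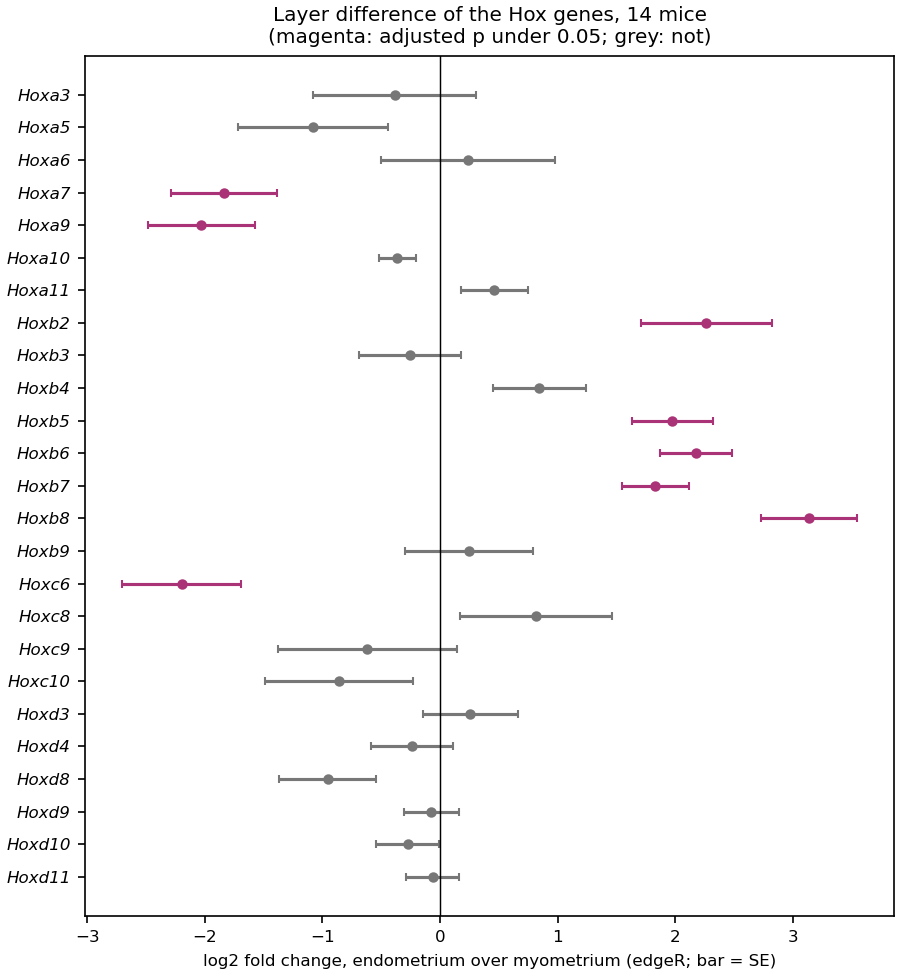
Log2 fold change of endometrium over myometrium for 25 tested Hox genes, ordered by cluster and number, with bars of 1 SE (edgeR, 14 mice, both genotypes). Points in magenta passed an adjusted p of 0.05, and Hoxa2 is left out because it had 0 counts in endometrium. Hoxb5 to Hoxb8 and Hoxb2 lie to the right of 0, Hoxa7, Hoxa9 and Hoxc6 to the left, and Hoxd9, Hoxd10 and Hoxd11 lie near 0.

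The genes lower in endometrium had modest levels. Hoxa9 (chr6:52173099-52181088) ranged from 0 to 12.9 CPM (median 0) in WT endometrium and from 0 to 4.35 (median 2.47) in KO endometrium, against 3.49 to 32.3 (median 6.47) and 4.70 to 24.3 (median 9.68) in myometrium. It was lower in endometrium in 14 of 14 mice, by 2.03 ± 0.45 on the log2 scale (log2 fold change -2.03, SE, adjusted p = 0.000642, edgeR). In KO every endometrium was below every myometrium. Hoxa9 shares exons on the same strand with Mir196b and with the transcript 9930038K12Rik.

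Hoxa7 (chr6:52164490-52171853) ranged from 0 to 15.5 CPM in endometrium and from 2.89 to 21.6 in myometrium, with myometrium higher in 13 of 14 mice and a log2 fold change of -1.84 ± 0.45 (SE, adjusted p = 0.00174, edgeR). The exception was WT mouse 8, at 15.5 CPM in endometrium and 14.0 in myometrium. Hoxc6 (chr15:102828688-102842312) ranged from 0 to 4.11 CPM in endometrium and from 0 to 14.9 in myometrium, with a log2 fold change of -2.20 ± 0.51 (SE, adjusted p = 0.000899, edgeR) and myometrium higher in 11 of 14 mice. Hoxa2 had 0 counts in endometrium and 7 in myometrium. With a floor of 3 counts over the endometria and the 7 counts taken as exact, it was 3.08-fold lower in endometrium. The counting error of the 7 was left out, so the true fold could be smaller. The call of Hoxa2 was lost with the mouse as replicate block (adjusted p = 0.0551, edgeR) and it had no adjusted p in DESeq2.

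**Figure D3:**
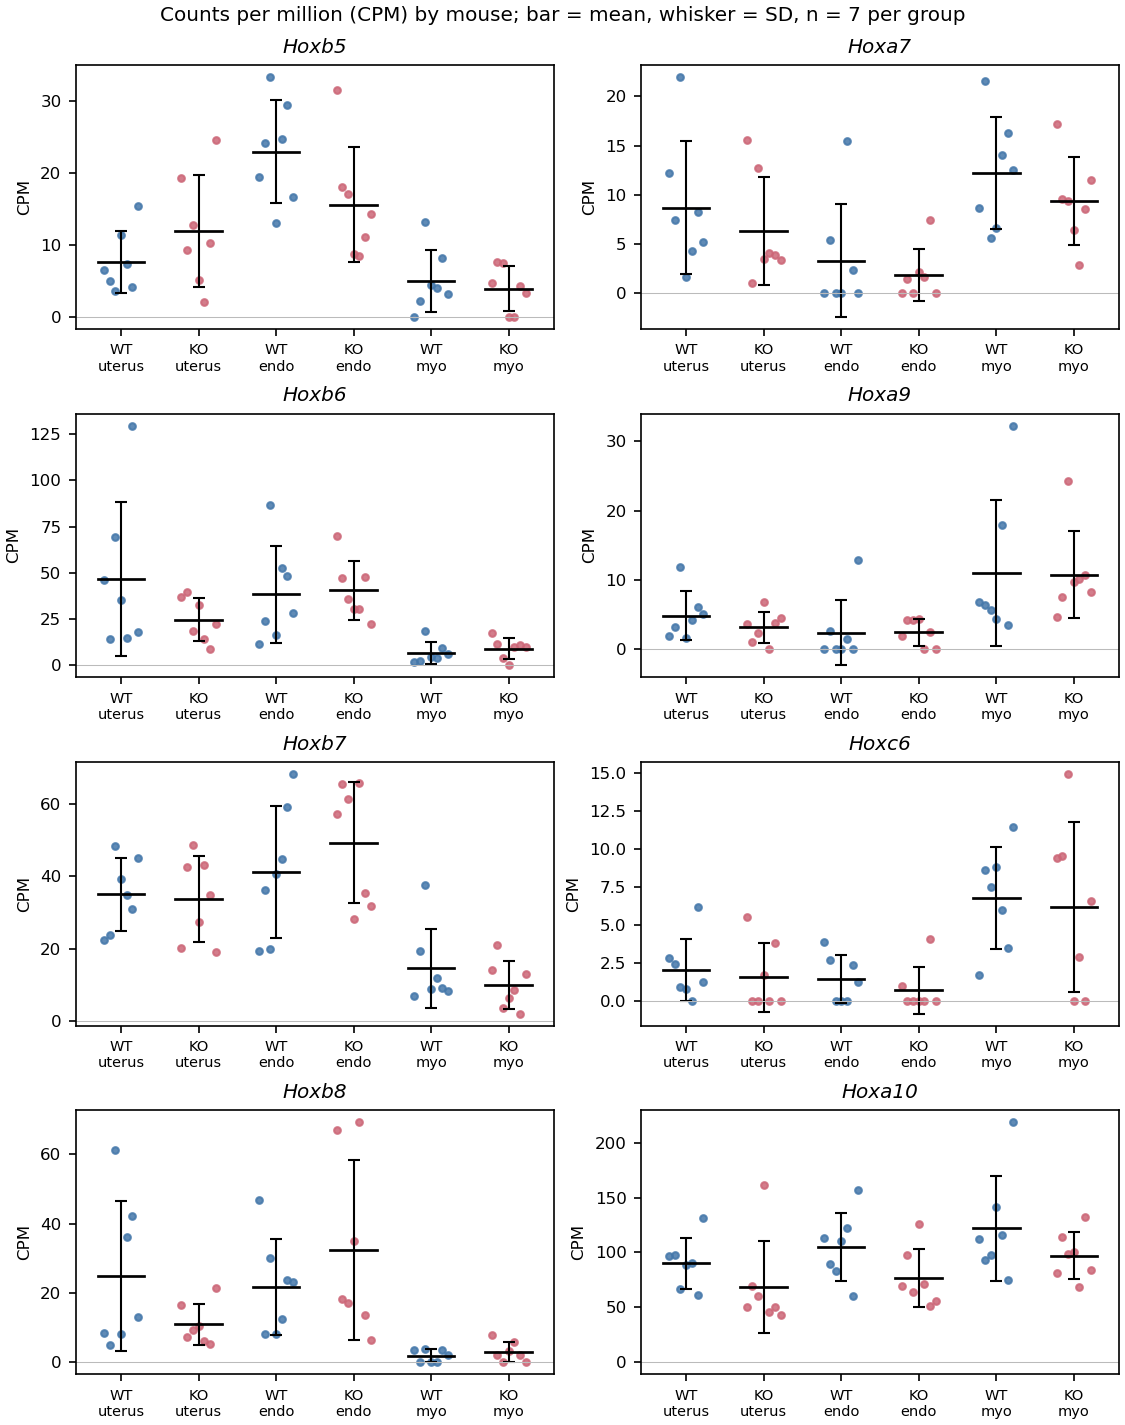
CPM of 8 Hox genes by mouse in the 6 groups (7 mice each), WT in blue and KO in red, with the mean as a bar and 1 SD as whiskers. Hoxb5 to Hoxb8 sit high in endometrium and low in myometrium, Hoxa7, Hoxa9 and Hoxc6 the other way, and Hoxa10 overlaps between all groups.

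The genes best known from the uterus did not pass the test between layers. Hoxa10 had a log2 fold change of -0.36 ± 0.16 (SE, adjusted p = 0.080, edgeR), which turned to 0.018 with spike-in scaling, and was higher in myometrium in 10 of 14 mice. Hoxa11 had 0.46 ± 0.28 (SE, adjusted p = 0.24, edgeR), ranging from 6.36 to 49.0 CPM in endometrium and from 2.00 to 28.1 in myometrium. It was higher in endometrium in 11 of 14 mice, 7 of 7 WT and 4 of 7 KO, and with spike-in scaling it passed the test (0.80, adjusted p = 0.0466, edgeR). The HoxD genes of paralogs 9 to 11, which pattern limbs and the urogenital tract, had log2 fold changes of -0.074 ± 0.23 for Hoxd9, -0.27 ± 0.27 for Hoxd10 and -0.063 ± 0.22 for Hoxd11 (SE, adjusted p of 0.86, 0.49 and 0.87, edgeR), and all 3 were above 0 with spike-in scaling. Hoxd9 ranged from 8.12 to 56.7 CPM in endometrium and from 11.5 to 45.0 in myometrium, Hoxd10 from 0 to 27.0 and from 4.34 to 34.4, and Hoxd11 from 12.7 to 42.9 and from 6.45 to 44.3. Hoxc9 and Hoxc10 stayed at or under 6.58 CPM in every sample, with log2 fold changes of -0.62 ± 0.76 and -0.86 ± 0.63 (SE, adjusted p of 0.60 and 0.34, edgeR).

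In WT, 5 of 22 tested Hox genes passed (22.7%), against 13.2% of all genes. Hoxb5 to Hoxb8 were higher (6.81% of all genes were) and Hoxc6 lower (6.39%), and with the mouse as replicate block 7 passed (14% of all genes), Hoxa7 and Hoxa9 being added. In KO, 8 of 22 passed (36.4%), against 19.3% of all genes: Hoxb2 and Hoxb5 to Hoxb8 were higher (10.6% of all genes were) and Hoxa7, Hoxa9 and Hoxc6 lower (8.71%). With the replicate block 9 passed in KO (21.4% of all genes), Hoxd8 being added. Some of these genes reached 1 CPM in fewer than 5 samples of their lower layer. They therefore entered the fit only through the layer where they were high, which limits the shares of Hox genes called. They were Hoxc6 and Hoxb8 in WT, Hoxb2, Hoxa7 and Hoxc6 in KO, and the genes that the replicate block added. The difference between the genotypes in the layer effect was tested as an interaction, and 0 of 26 Hox genes passed (edgeR, 0% of all genes). That fit left out the pairing of layers by mouse. With the mouse as replicate block 0 Hox genes passed again, and 0.0699% of all genes did. Without the block, at an unadjusted p under 0.05 there was 1 of 26, against 4.6% of all genes, and DESeq2 also gave 0 adjusted calls and 1 at that level. That gene was Hoxb3, an axial patterning gene, with an interaction of 2.17 ± 0.83 (SE, adjusted p = 0.98, edgeR).

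In intact uterus, which holds both layers, Hoxb6, Hoxb7 and Hoxb8 averaged nearer to the endometrial than to the myometrial level, and Hoxb4 and Hoxb5 nearer to the myometrial level. Hoxb6 averaged 35.7 CPM in uterus, 39.4 in endometrium and 7.84 in myometrium, and Hoxb7 averaged 34.4, 45.3 and 12.3 CPM. Hoxb8 averaged 17.8 CPM in uterus, 27.0 in endometrium and 2.41 in myometrium. For Hoxb5 the means were 9.80, 19.3 and 4.45 CPM, and for Hoxb4 7.02, 21.2 and 9.79 CPM. Hoxa9 averaged 4.03, 2.45 and 10.9 CPM in the same order. Uterus was not tested against the layers.

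The partners and regulators of Hox proteins were read from lists, against 14.9% of all genes higher and 13.3% lower in endometrium. Of 8 tested TALE cofactors, 0 were higher and 3 lower in endometrium, among them Meis1 (log2 fold change -1.76 ± 0.27, SE) and Meis2 (-2.37 ± 0.29), with edgeR adjusted p of 2.89e-06 and 3.93e-08. Their median log2 fold change was -0.62, against 0.033 over all genes. Of 25 Polycomb and trithorax genes, which keep Hox clusters silent or open, 2 were higher (Cbx2 and Rbbp7) and 1 lower (Bmi1), with a median of -0.076. Of 7 genes reported downstream of Hoxa10 or Hoxa11, the prostaglandin receptor gene Ptger4 was higher (1.49 ± 0.38, SE) and Ptger3 (-2.92 ± 0.42) and Emx2 (-0.60 ± 0.23) were lower, with a median of 0.31. Of 12 tested neighbours and noncoding RNAs of the clusters, 2 were higher (Hoxa11os and Skap2) and 1 lower (Hnrnpa1), with a median of -0.19. Of the 4 regulators of Hox timing, Gdf11 alone was tested, and it did not pass. Each of these lists had 0 calls between the genotypes in the 3 tissues.

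Muscle, epithelial and stromal markers all moved with the layer: 4 of 4 muscle markers and 7 of 8 stromal markers were lower in endometrium and 4 of 4 epithelial markers higher, and their part in the Hox differences was not tested. Of the other marker lists, 2 of 2 oviduct markers and 1 of 3 tested leukocyte markers were higher in endometrium, 1 of 3 mesothelial markers was lower, and 0 of 3 endothelial and 0 of 1 tested adipocyte markers passed. The squamous markers Krt5, Krt14 and Trp63 had a median sum of 0 CPM in each tissue.

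KO was compared with WT to ask whether the lack of Plag1 changes Hox expression in the adult uterus. No Hox gene passed the test in any tissue: 0 of 19 tested in uterus, 0 of 23 in endometrium and 0 of 21 in myometrium (edgeR), and 0% of all genes passed in each. DESeq2 gave 0 Hox calls in each tissue as well. At an unadjusted p under 0.05 there were 3 of 19 in uterus (5.64% of all genes), 1 of 23 in endometrium (5.2%) and 1 of 21 in myometrium (4.22%), and DESeq2 gave the same 3 counts. No Hox gene had WT and KO values in separate ranges in any tissue. The share of all genes with separate ranges was not counted, so this does not set the Hox genes apart.

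Hoxa11 had the smallest p in uterus. It ranged from 7.42 to 38.6 CPM (median 14.7) in WT uterus and from 2.57 to 12.3 (median 5.19) in KO uterus, and 5 of 7 KO samples were below all WT samples. The log2 fold change was -1.37 ± 0.40 (SE, adjusted p = 0.570, edgeR). Within the mice of position rows A to C it was -1.43 and within rows D to F -1.76. In the layers of the same mice it was -0.032 ± 0.41 in endometrium and 0.097 ± 0.39 in myometrium. Hoxb4 (-1.47 ± 0.55) and Hoxb8 (-1.04 ± 0.47) were the other uterine genes at an unadjusted p under 0.05 (SE, adjusted p of 0.72 and 0.84, edgeR).

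In uterus 16 of the 19 tested Hox genes had a fold change below 0, with a median of -0.37 against -0.050 over all genes tested. In endometrium 12 of 23 were below 0 (median -0.022, all genes 0.017), and in myometrium 14 of 21 (median -0.32, all genes -0.031). The share of all genes below 0 was not counted. Genes measured in the same samples are not independent, and these counts carry no test. In summed CPM all Hox genes together stood at 334 ± 73.7 in WT and 230 ± 57.7 in KO uterus, at 383 ± 71.2 and 353 ± 94.3 in endometrium and at 320 ± 89.8 and 255 ± 37.3 in myometrium (SD, n = 7 each).

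Hoxd8 entered the endometrium fit only through WT, where it was high, because too few KO endometria reached 1 CPM for the filter. It was at 0 CPM in the endometrium of KO mice 2, 9, 11 and 14, which limits its result. Hoxd8 had the smallest p in endometrium, at 1.62 to 11.7 CPM in WT and 0 to 5.70 in KO (log2 fold change -1.47 ± 0.70, SE, adjusted p = 0.95, edgeR). Hoxb3 had it in myometrium, at 1.88 to 18.0 CPM in WT and 0 to 5.73 in KO (log2 fold change -1.43 ± 0.60, SE, adjusted p = 1.00, edgeR). Hoxa10 had fold changes below 0 in the 3 tissues, at -0.37 ± 0.27 in uterus, -0.38 ± 0.25 in endometrium and -0.31 ± 0.21 in myometrium (SE, adjusted p of 0.92, 0.97 and 1.00, edgeR).

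**Figure D4:**
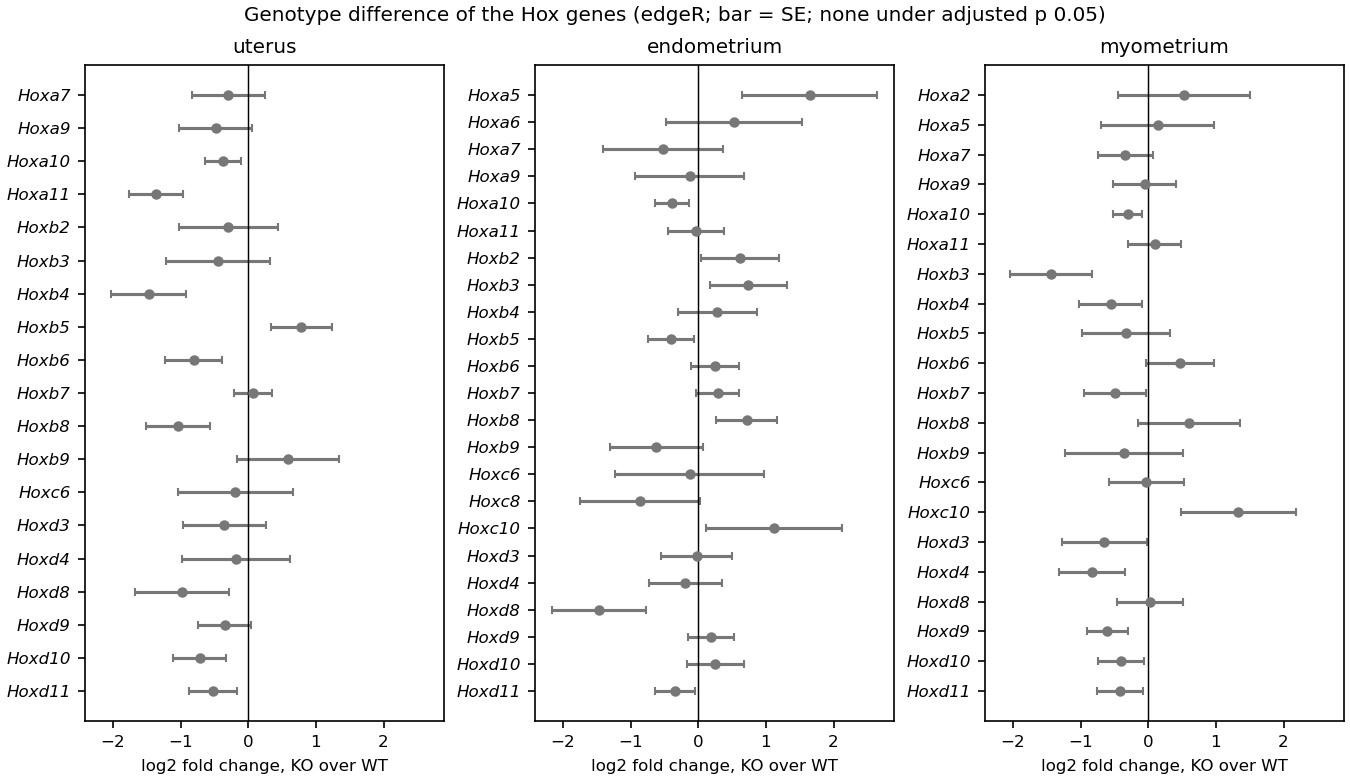
Log2 fold change of KO over WT for the tested Hox genes in uterus, endometrium and myometrium (7 mice per genotype), with bars of 1 SE (edgeR). All points are grey because none passed an adjusted p of 0.05. In uterus 16 of 19 points lie to the left of 0 (median -0.37, against -0.050 over all genes tested), a count that carries no test.

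Hoxa11 has an antisense neighbour, Hoxa11os, which overlaps it by 1822 bases and is known to be transcribed opposite Hoxa11 in the uterus. Hoxa11os had 6510 counts in all, against 533 for Hoxa11, and was above Hoxa11 in 42 of 42 samples. In WT it ranged from 145 to 431 CPM in uterus, from 180 to 574 in endometrium and from 126 to 268 in myometrium. In KO the ranges were 64.3 to 342, 107 to 420 and 60.8 to 202 CPM, and each overlapped that of WT. Of the KO samples, 5 of 7 uteri, 4 of 7 endometria and 6 of 7 myometria were below every WT sample of their tissue. The 3 tissues come from the same mice, and such counts were not made over all genes. Hoxa11os counts divided by Hoxa11 counts gave WT medians of 14.8 for uterus, 14.1 for endometrium and 13.2 for myometrium, and KO medians of 25, 16.6 and 5.90, with no test of the difference.

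Between the layers Hoxa11os was higher in endometrium in 12 of 14 mice (log2 fold change 0.81 ± 0.20, SE, adjusted p = 0.0014, edgeR). Between the genotypes its log2 fold change (KO over WT) was -0.68 for uterus, -0.60 for endometrium and -0.74 for myometrium, and none passed the test (adjusted p of 0.84, 0.96 and 0.84, edgeR). Since the use of strand in counting is not stated, some of the tags given to Hoxa11 could come from its antisense partner.

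**Figure D5:**
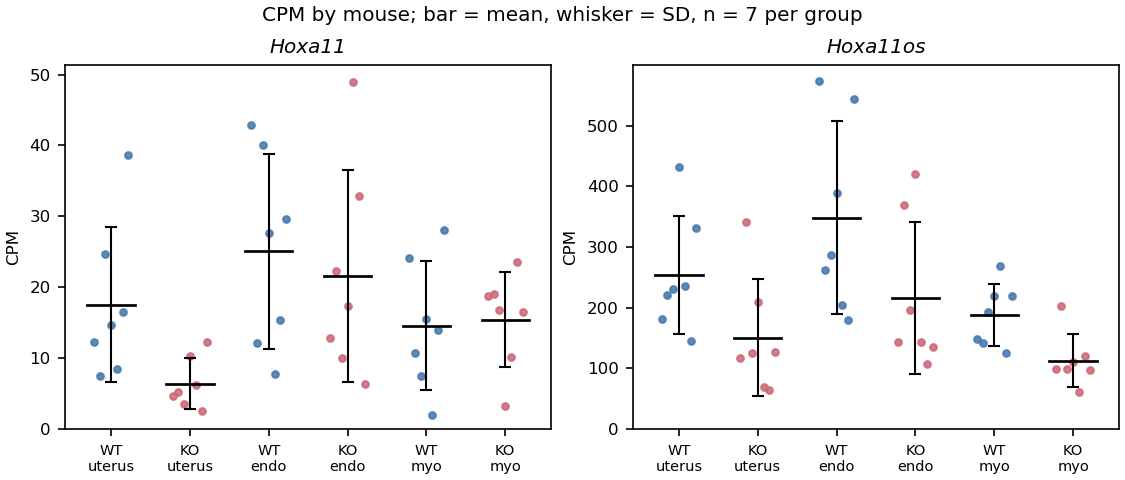
CPM of Hoxa11 and of its antisense neighbour Hoxa11os by mouse in the 6 groups (7 mice each), with the mean as a bar and 1 SD as whiskers, on separate scales. Hoxa11os lies above Hoxa11 in each of the 42 samples, and WT and KO overlap in each tissue for both genes.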

How the data were processed

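RNA of uterus, endometrium and myometrium was profiled by STRT RNA-seq in a single pool with spike-in RNA. The authors deposited raw counts for each gene and library, made by joining reads with the same molecular identifier, aligning them to mm9 (NCBIM37) by TopHat and assigning tags to the gene models of UCSC by means of Homer. The submitters' processing notes name HTSeq. The use of strand and of reads with several positions is not given in the sources used here. Libraries were grouped by the labels' tissue, genotype and mouse number. The labels gave 14 mice, fewer per genotype than the design text names, and 3 libraries of KO mouse 13 endometrium and 2 of WT mouse 12 myometrium were summed. No sample was left out, and results for some genes are not reported here.

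A gene entered a fit when 5 or more of its samples reached 1 CPM, and was tested by edgeR 4.0.16 in R 4.3.3 (quasi-likelihood, TMM, Benjamini-Hochberg over all genes tested, threshold 0.05), without covariates except genotype in the layer fit over both genotypes. The interaction was fitted over the 4 groups of both layers, and errors of fold changes were taken from the F statistic. Scripts were tested on simulated data. Endometrium and myometrium of a mouse are paired by the animal: over 14822 genes their deviations from the group means correlated by 0.0984 in WT and 0.144 in KO on average, against -0.0165 and -0.0241 between mice. Alternatives were spike-in scaling, DESeq2 1.42.0, size factors by relative log expression, all genes with a count, the first repeat library only, the mouse as a block, position rows as a covariate, all 6 groups in a single fit, and leaving out KO mouse 13 or WT mouse 8. Fits within position rows and without WT mouse 5 were chosen after seeing the data. Named genes were the tested genes of paralogs 9 to 13, those with a group mean of 20 CPM or more, those past the threshold and the smallest p of each genotype comparison and the interaction, and others, named to show a list or a pattern, were chosen after their values were seen. The genes, lists and rules were chosen with earlier results of these data known. Mean levels between genes are in CPM, since the tags mark 5′ ends, with values per kb of exon beside them.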

Additional observations from a re-analysis of the deposited data

Results flagged for a closer look

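Among 12 Hox genes in 6 groups, 10 of 72 sets of 7 mice held a sample far from the others, by the gap to its nearest neighbour as a share of the whole range (Dixon's criterion). For normally distributed values chance flags about 1 set in 20, but CPM values need not be so distributed. A set with a count in a single mouse is also always flagged, as 4 of the 10 were, so that rate does not apply here. Hoxa10 was at 161 CPM in the uterus of KO mouse 9, and the next KO uterus was at 69.6. Hoxd10 was at 0 CPM in the uterus of KO mouse 11 (the next sample at 6.43), at 0 CPM in the endometrium of WT mouse 5 (the next at 13.0) and at 4.34 CPM, or 3 counts, in the myometrium of KO mouse 11 (the next at 12.9). The floor of 3 counts stood for 6.17 CPM in that uterus and 10.0 CPM in that endometrium, so both zeros are coarse. Hoxd11 was at 8.23 CPM, or 8 counts, in the uterus of WT mouse 10, with the next sample at 23.2.

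Like those of Hoxd10, the other flags rest on few counts. Hoxb9 was at 0 in the endometrium of WT mouse 10, with the next sample at 2.57 CPM. Hoxc9 was seen in a single mouse of 3 groups, at 2.75 CPM (3 counts) in the uterus of KO mouse 2, 0.823 CPM (2 counts) in the endometrium of KO mouse 13 and 4.43 CPM (2 counts) in the myometrium of WT mouse 7. Hoxc10 was seen in the uterus of KO mouse 4 alone among KO uteri, at 1.04 CPM (1 count).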

How the results depend on the processing

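Over the counts of Hox calls in the 7 comparisons and the 10 highest Hox genes of each group (taken per kb or by the median), 71 of 72 alternative values stayed within 1.5 times of the reported one, and the 0 calls between genotypes and for the interaction held in each alternative. Many of the 72 are such counts of 0. At most 10 genes of any kind passed in those settings, so these counts had little room to move. Between the layers over both genotypes, 4 Hox genes passed within the mice of rows D to F (Hoxb5 to Hoxb8) against 9 over all mice, with fewer mice in the fit, and 8 passed within rows A to C. Hoxb5 to Hoxb8 passed in each alternative of the 3 layer comparisons. With the mouse as replicate block 7 Hox genes passed in WT (14% of all genes), 9 in KO (21.4%) and 8 over both (26.8%), and the block changed the calls of Hoxa7 and Hoxa9 in WT, Hoxd8 in KO and Hoxa2 over both. Hoxc6 in WT lost its call with spike-in scaling, with the first repeat library alone, without WT mouse 5 (edgeR adjusted p = 0.0517) and without WT mouse 8 (0.0713), and Hoxa7 in WT gained one with DESeq2 and without WT mouse 8. Within rows D to F, Hoxa7 (-1.68), Hoxa9 (-1.94), Hoxb2 (2.04) and Hoxc6 (-1.10) kept their direction and lost their calls.

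Spike-in scaling moved the median over all tested genes from 0.033 to 0.39 (log2) between the layers over both genotypes, from 0.0053 to 0.21 in WT, from 0.075 to 0.58 in KO, from 0.070 to 0.35 for the interaction, and between genotypes from -0.050 to -0.37 in uterus and from 0.017 to 0.27 in endometrium. Hoxa7 and Hoxc6 in KO lost their calls with it, and Hoxb4 (KO, and both genotypes) and Hoxa11 (both genotypes) gained one. With it, the layer values over both genotypes turned to 0.018 for Hoxa10, 0.31 for Hoxd9, 0.14 for Hoxd10 and 0.29 for Hoxd11, those in KO to 0.071 for Hoxa10 and 0.50 for Hoxd11, and that in WT to 0.092 for Hoxd11. The KO over WT value of Hoxa11 in endometrium turned to 0.38, and the interaction to 0.11 for Hoxa10 and 0.27 for Hoxa11. Within rows D to F, KO over WT turned to 0.031 for Hoxd9 and 0.069 for Hoxd11 in uterus, 0.21 for Hoxa11 and -0.056 for Hoxd10 in endometrium and -0.48 for Hoxa11 in myometrium. Within rows A to C it turned to -0.21 for Hoxd9 in endometrium, and the layer values to 0.012 for Hoxd9 and 0.21 for Hoxd11. With the first repeat library alone, Hoxa11 in endometrium turned to 0.039 and the interaction of Hoxd11 to -0.035. Without KO mouse 13 the interaction was 0.081 for Hoxa10 and -0.068 for Hoxd11, and with the replicate block Hoxd11 in KO was 0.073. None of the turned values passed the test before or after, and the cause was not tested. Depth limits genes of few counts, since 3 counts stood for up to 11.7 CPM.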

Other observations

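Single mice stood high for several Hox genes at once, in values chosen after they were seen. In endometrium the 4 mice with the most Hoxb4 were also the 4 with the most Hoxb8 (WT mouse 1 and KO mice 2, 9 and 11). Hoxb4 was at 81.9 CPM in WT mouse 1, 57.4 in KO mouse 11, 44.3 in KO mouse 2 and 21.8 in KO mouse 9, and Hoxb8 was at 46.8, 69.2, 67.0 and 34.8 CPM in the same order. WT mouse 1 and KO mouse 11 also had the highest endometrial Hoxa11, at 42.9 and 49.0 CPM. The endometrium of WT mouse 1 was the shallowest sample, and its values rest on 21 counts of Hoxb4, 12 of Hoxb8 and 11 of Hoxa11. Hoxb6 shared 1 of its 4 highest endometria with Hoxb8. In uterus WT mice 5 and 10 were among the 4 highest for Hoxb6 (69.5 and 130 CPM) and for Hoxb8 (61.3 and 42.2 CPM). The mice highest for endometrial Hoxb8 were not among the 4 highest uteri for it. Their uterine Hoxb8 was at 8.46 CPM in WT mouse 1 and 6.17, 16.5 and 10.3 in KO mice 11, 2 and 9. Uterine Hoxb4 was at 10.3, 6.17, 1.84 and 0 CPM in the same order. The place along the horn from which each piece was taken is not given in the sources used here.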
